A study of Mus musculus with 10 samples.

Results

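The mitochondrial genome of the mouse carries 37 genes, and all 37 had an entry among the 51912 genes counted in these motor neuron libraries. They were taken as every gene whose symbol starts with mt-, and they matched the complete set that the GENCODE M21 annotation places on the mitochondrial chromosome. The set held 13 mRNAs, 2 rRNAs and 22 tRNAs. The samples were pools of about 50 motor neurons cut by laser from frozen lumbar spinal cord, 1 pool and 1 polyA Smart-seq2 library per mouse. Of 10 mice, 5 carried the HSA-NRTN transgene and 5 were their wild-type littermates, and each genotype held 3 females and 2 males. The transgene puts neurturin, a growth factor related to GDNF, under the human skeletal actin promoter, which is active in muscle fibres and not in the captured neurons. No other allele or agent is given in the labels for either group, and age is not given there. Only cells with a visible nucleolus and above a minimum area were cut, so small motor neurons were left out. The series asks how neurturin made by muscle bears on motor neurons, and the genotype comparison below addresses that question for the mitochondrial transcripts.

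Mitochondrial DNA is read from both strands into long transcripts that are cut apart, largely at the tRNAs, into single RNAs. The heavy-strand transcript gives both rRNAs, most tRNAs and all mRNAs but mt-Nd6, which comes from the light strand. The proteins are subunits of the respiratory chain: the mt-Nd genes encode parts of complex I, mt-Cytb of complex III, the mt-Co genes of complex IV, and mt-Atp6 and mt-Atp8 of the ATP synthase. mt-Rnr1 and mt-Rnr2 are the RNAs of the small and the large subunit of the mitochondrial ribosome. Motor neurons carry long axons and depend on mitochondria for the ATP that ion pumping and transport use. The nuclear genome also holds old inserted copies of mitochondrial DNA, and the ones that match mitochondrial genes most closely bear on what the counts can show.

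The libraries held 1875971 to 6641695 gene counts and 14090 to 19675 genes with at least 1 count. The defining markers of motor neurons, 7 of 7 detected, summed to 2247 to 3462 CPM (counts per 1000000 gene counts) in wild-type and 2968 to 4346 in HSA-NRTN pools. The 6 oligodendrocyte markers, all detected, summed to 193 to 566 in wild-type and 280 to 1400 in HSA-NRTN pools, and the 6 astrocyte markers to 53.05 to 260.6 and 45.8 to 738. Microglial markers reached at most 11.7, endothelial markers 25.6, inhibitory interneuron markers 158 and skeletal muscle markers 1.95 CPM. HSA-NRTN replicate 2 had the fewest gene counts and the highest oligodendrocyte and astrocyte sums. In pools, fewer cells of a type and less RNA per cell cannot be told apart.

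The nuclear copies are shown first because reads from a shared sequence cannot be placed with certainty. Among annotated nuclear transcripts, 15 genes matched 11 of the 37 mitochondrial genes at 90% identity or more over at least 200 bases, and 7 of the 15 matched at 98% or more. Those 7 pseudogenes lie in 1 block on chromosome 1 of GRCm38 (chr1:24611535-24616197, minus strand), and 5 of them match their mitochondrial gene without a difference. The block runs in the order of the mitochondrial genome from mt-Co1 to mt-Nd4 and corresponds to positions 6390 to 11042 there. Stretches between its neighbouring genes were as long as in the mitochondrial genome in 5 of 6 cases, and 74 instead of 73 bases long between the copies of mt-Nd3 and mt-Nd4l. The lines below give 60 bases of 3 mitochondrial genes, each followed by a nuclear copy, with capitals at bases that differ within the pair. The sequences come from the GENCODE M21 transcripts, 5′ to 3′ on the strand of the gene, and were chosen to show an identical copy, a copy with a single difference and a diverged copy. The first pair is mt-Co3 (chrM:8607-8666, plus strand) and Gm28437 (chr1:24613912-24613971, minus strand), the second mt-Nd3 (chrM:9459-9518, plus strand) and Gm28438 (chr1:24613060-24613119, minus strand). The third is mt-Cytb (chrM:14175-14234, plus strand) and Gm11410 (chr4:80004019-80004078, plus strand).
mt-Co3: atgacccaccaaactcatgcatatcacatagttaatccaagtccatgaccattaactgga
Gm28437: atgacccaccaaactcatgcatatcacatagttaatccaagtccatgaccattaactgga
mt-Nd3: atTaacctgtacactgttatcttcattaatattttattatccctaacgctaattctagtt
Gm28438: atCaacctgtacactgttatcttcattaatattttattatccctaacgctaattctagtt
mt-Cytb: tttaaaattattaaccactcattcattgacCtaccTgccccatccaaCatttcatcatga
Gm11410: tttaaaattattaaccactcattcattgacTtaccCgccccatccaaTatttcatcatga
The first pair had 0 differing bases of 60, the second 1 and the third 3.

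The 5 mRNAs from mt-Co2 to mt-Nd4l other than mt-Atp8 are covered by such copies almost end to end. Of the 50-base windows of each gene, 100% in mt-Co2, 99.9% in mt-Co3, 99.5% in mt-Atp6, 98.8% in mt-Nd4l and 97.99% in mt-Nd3 occurred in an annotated nuclear transcript. The share was 62.2% in mt-Nd4 and 51.1% in mt-Co1, which are covered in part, 8.19% in mt-Nd2 and 7.61% in mt-Nd5, and 0% in mt-Nd1, mt-Nd6 and mt-Cytb. It was also 0% in mt-Rnr1 and 1.04% in mt-Rnr2. mt-Atp8 had 0% as well, but no annotated transcript covers its place in the chromosome 1 block, where the stretch between the copies of mt-Co2 and mt-Atp6 is 233 bases long in both genomes. No genome sequence was used, so copies outside annotated transcripts are not counted.

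The mRNAs so covered had far lower levels than the others. Levels between genes are compared here as counts per kilobase of gene in 1000000 gene counts, the level per kb. Over the 10 libraries the mean level per kb was 4.10 to 108 among the 5 mRNAs with over 90% of windows matched. It was 1212 to 18121 among the 5 with under 20% matched, mt-Atp8 apart, and 1670 for mt-Co1 and 6451 for mt-Nd4. The highest single value of the first set, 267.5 for mt-Atp6 in wild-type replicate 2, lay below the lowest of the second, 750.0 for mt-Nd5 in HSA-NRTN replicate 4. These limits, and the setting apart of mt-Atp8, were chosen after the values were seen. mt-Atp8 had a mean level per kb of 17.0. The 5 covered mRNAs held 0.144% to 0.572% of mitochondrial mRNA counts per library. Reads that aligned to more than 1 place made up 15.3% to 32.5% of all reads and were not assigned to genes, and how many of them came from mitochondrial genes was not tested.

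**Figure D1:**
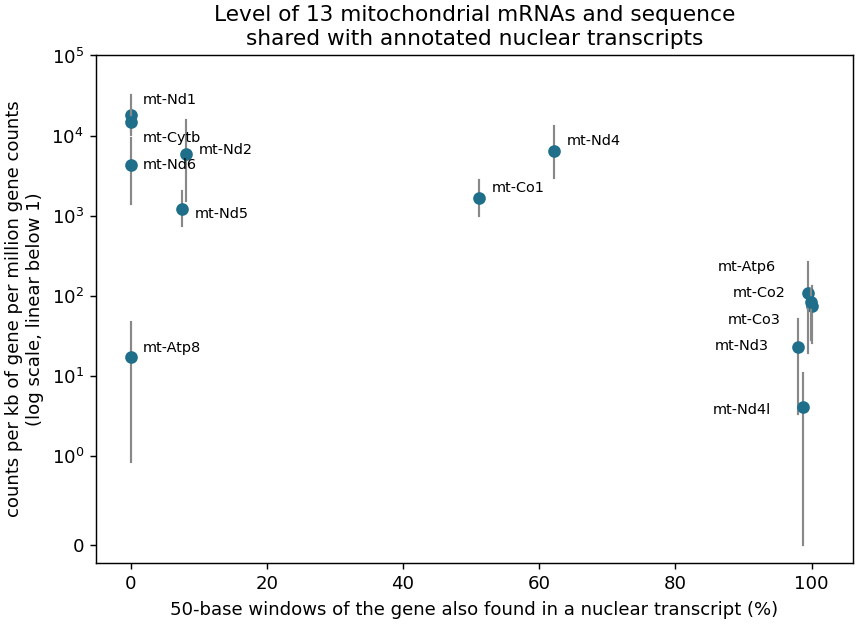
Each point is the mean level of a mitochondrial mRNA over 10 libraries, in counts per kb of gene and 1000000 gene counts, against the percentage of its 50-base windows also found in an annotated nuclear transcript. The level axis is logarithmic. Lines run from the lowest to the highest library, and the 5 mRNAs over 90% matched lie at means of 4.10 to 108, well below mt-Nd1 at 18121.

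For the 5 mRNAs matched over 90% of their windows, the copies in the block had 0.481 to 2.60 counts for each count of the gene over all libraries. For mt-Nd4 and mt-Co1, matched in part, the copies in the block, Gm28439 and Gm29216, had 300 and 1056 counts against 378752 and 125828 for the genes. Outside the block, Gm13341 on chromosome 2 (95.9% identity) had 829 counts against 2077 for mt-Co2. It exceeded the gene only in HSA-NRTN replicate 2, with 241 against 169. Also on chromosome 2, Gm13339 had 1265 counts against 249594 for mt-Nd2, and Gm13340 had 412 against 125828 for mt-Co1. Gm11410 on chromosome 4 had 292 against 762142 for mt-Cytb. mt-Nd3, a small complex I subunit, had 78, 43, 16, 7 and 38 counts in wild-type replicates 1 to 5, and its copy Gm28438 had 122, 110, 42, 46 and 65. In HSA-NRTN replicates 1 to 5, mt-Nd3 had 36, 33, 22, 11 and 25 counts and Gm28438 had 142, 67, 103, 39 and 66. The copy exceeded the gene in every library. mt-Co2, a cytochrome oxidase subunit, went the other way, with 112 to 446 counts per library against 59 to 209 for its copy Gm28661, and it was the higher of the pair in every library. mt-Co3, another core subunit of that enzyme, had 2774 counts over all libraries and its copy Gm28437 had 6890, of which 1921 fell in wild-type replicate 1 and 1562 in HSA-NRTN replicate 2. Over all libraries the 7 pseudogenes of the block had 484 to 3560 counts per library, or 0.969 to 4.23 counts for each count of the 6 mRNAs that lie inside the block. The 2 sums do not cover the same genes. The 7 pseudogenes include the copies of mt-Co1 and mt-Nd4, which are not among the 6 mRNAs. mt-Atp8 is among the 6 and has no annotated copy in the block. Reads of such a pair cannot be assigned to the gene or to the copy with certainty, so values of mt-Co2, mt-Atp6, mt-Co3, mt-Nd3, mt-Nd4l and mt-Atp8 are uncertain.

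Among mRNAs, the complex I gene mt-Nd1 and the complex III gene mt-Cytb had the highest levels per kb. mt-Nd1 was at 32464, 20054, 12666, 12813 and 11476 in wild-type replicates 1 to 5 and at 21658, 26178, 19235, 12349 and 12319.5 in HSA-NRTN replicates 1 to 5. mt-Cytb, which encodes cytochrome b, lay between 10218 and 20899.6 over all libraries. mt-Nd1 exceeded mt-Cytb in 8 of 10 libraries with a ratio of means of 1.24, so their order did not hold in every pool. Then followed mt-Rnr2 (mean 7361), mt-Nd4 (6451), mt-Rnr1 (5932), mt-Nd2 (5877) and mt-Nd6 (4242), with neighbours in this order whose places changed in 2 to 7 of the 10 libraries. mt-Co1, the catalytic subunit of cytochrome oxidase, had a mean of 1670 and mt-Nd5, a proton-pumping subunit of complex I, 1212, and mt-Co1 was the higher in 6 of 10 libraries. The step from mt-Nd5 to the next gene, mt-Atp6, was 11.2-fold and held in 10 of 10 libraries. Below it came mt-Co3 (83.7), mt-Co2 (74.1), mt-Nd3 (23.1), mt-Atp8 and mt-Nd4l. Only the step from mt-Co2 to mt-Nd3 held in all 10 libraries there.

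Counted over unmatched windows alone, the order among the highest genes was different. On that scale, counts per 1000 unmatched 50-base windows in 1000000 gene counts, mt-Nd1 was at 19099 ± 7512, mt-Nd4 at 17709 ± 8064 and mt-Cytb at 15221 ± 3667 (SD, n = 10 libraries). mt-Nd4 thus moved from the fourth place among mRNAs and rRNAs to the second, while mt-Nd5 stayed low at 1348 ± 400.2 and mt-Co1 stood at 3529 ± 1414. The scale takes every count of mt-Nd4 and mt-Co1 to come from unmatched windows, which overstates them where matched windows were counted too. It also rests on the window length, as mt-Co1 had 731 unmatched windows of 50 bases and 1000 of 100 bases. mt-Nd5 is 1824 bases long (chrM:11742-13565) and shares 14 bases with mt-Nd6 on the opposite strand. Smart-seq2 does not mark strand, so RNA from the opposite strand of mt-Nd6 and of the light-strand tRNAs is counted with them.

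**Figure D2:**
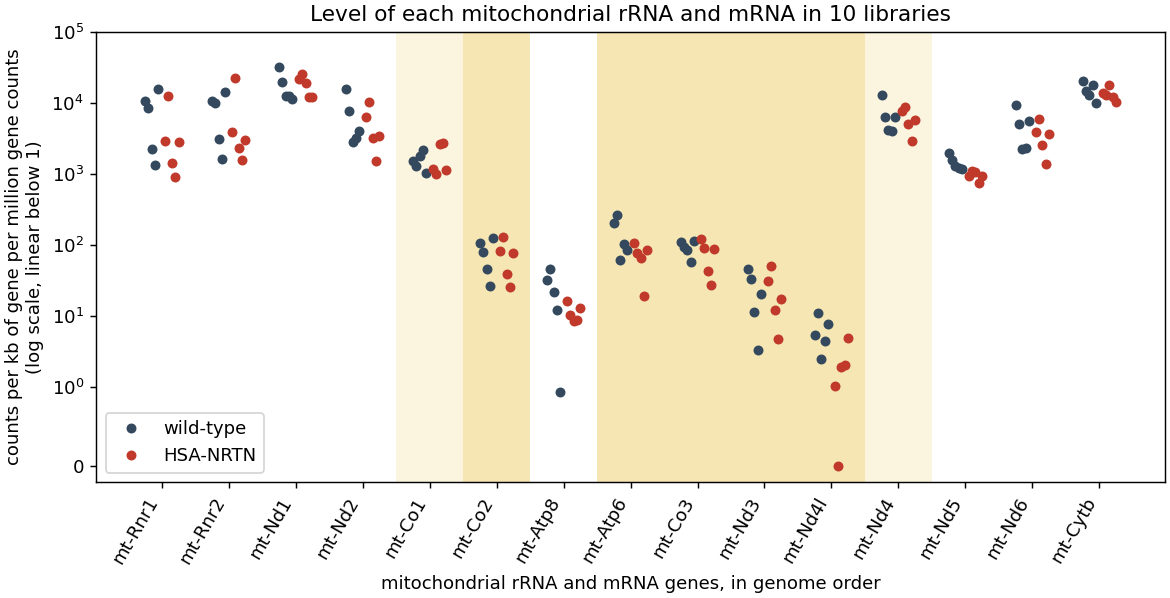
Each point is 1 library, with the level in counts per kb of gene and 1000000 gene counts for 2 rRNAs and 13 mRNAs in genome order, wild-type in dark blue and HSA-NRTN in red. The level axis is logarithmic. Dark yellow marks genes with over 90% of 50-base windows found in a nuclear transcript and pale yellow those with 51.1% and 62.2%, and the genes under dark yellow lie below 300 in every library.

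Counts on the genes of transfer RNAs (tRNAs) made up 0.258% to 2.75% of mitochondrial counts, and most of these fell on a single gene. Whether such counts in these polyA libraries come from tRNAs cut free, from uncut RNA or from the opposite strand was not tested. mt-Tq, the glutamine tRNA, had 6181, 2021, 1388, 2240 and 3353 counts in wild-type replicates 1 to 5 and 2762, 1411, 1344, 506 and 4733 in HSA-NRTN replicates 1 to 5. It held 67.4% to 84.1% of all tRNA counts in each library and was singled out after its values were seen. It is read from the light strand between mt-Nd1 and mt-Nd2 (chrM:3772-3842) and shares 3 bases with mt-Ti, the isoleucine tRNA, on the opposite strand (chrM:3706-3774). The sequences follow, from the same transcripts, with the 3 shared bases in capitals.
mt-Tq: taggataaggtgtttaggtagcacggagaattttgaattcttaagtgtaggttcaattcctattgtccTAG
mt-Ti: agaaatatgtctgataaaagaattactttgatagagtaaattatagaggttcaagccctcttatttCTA
mt-Ti had 0 to 15 counts per library, although the 2 genes are next to each other and of like length (69 and 71 bases). mt-Ti shares 5 bases with other mitochondrial genes and mt-Tq 3. How reads across shared bases, or reaching beyond so short a gene, were counted is not known. The part that this plays in the contrast was not tested. Another 11 tRNAs with at least 10 counts in at least 5 libraries, mt-Tf, mt-Tv, mt-Tl1, mt-Tm, mt-Ta, mt-Tc, mt-Ts1, mt-Tl2, mt-Te, mt-Tt and mt-Tp, had 1 to 504 counts. The remaining 10 had 0 to 17, and mt-Tw and mt-Tr, the tryptophan and arginine tRNAs, had 0 counts in all 10 libraries. No 50-base window of any tRNA was found in an annotated nuclear transcript. For the 5 tRNAs inside the stretch that the chromosome 1 block matches, this search could not find a match in the block. Their places there lie between the annotated copies, which alone were searched. Of these 5, mt-Td, mt-Tk, mt-Tg and mt-Tr had at most 5 counts and mt-Ts1 had 12 to 113.

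The share of gene counts that fell on the 37 genes ran from 4.15% to 12.9%. It was 12.9%, 8.62%, 4.99%, 5.34% and 8.12% in wild-type replicates 1 to 5, and 6.97%, 11.9%, 6.24%, 4.15% and 4.98% in HSA-NRTN replicates 1 to 5. The means were 8.005% ± 3.20 and 6.86% ± 3.04 (SD, n = 5 each), and the groups overlapped over nearly their whole range. The 95% Wilson interval of a library's share was at most 0.0464 percentage points to either side. It takes each count as an independent draw and leaves out the spread between pools. PCR copies without molecular identifiers are not independent molecules, so the interval is too narrow even for counting error. The difference of -1.15 percentage points was 0.0884 without wild-type replicate 1. Animal numbers in the labels fall in 2 runs, whose meaning is not given. The difference was -4.56 within the lower run, which holds 3 HSA-NRTN mice and 1 wild-type mouse, and -2.20 within the higher run.

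The 3 libraries with the highest mitochondrial share were the 3 with the fewest genes detected. Wild-type replicate 1 (14090 genes), HSA-NRTN replicate 2 (14858) and wild-type replicate 2 (15202) had the lowest numbers of genes and shares of 12.9%, 11.9% and 8.62%, the 3 highest. HSA-NRTN replicate 4, with 19675 genes the highest, had the lowest share. The order did not hold throughout, since HSA-NRTN replicate 3 had 19233 genes and a share of 6.24%. HSA-NRTN replicate 5 had fewer genes, 15975, and a lower share, 4.98%. All these shares and gene numbers come from the same counts, and the part that the number of genes detected plays in the share was not tested.

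**Figure D3:**
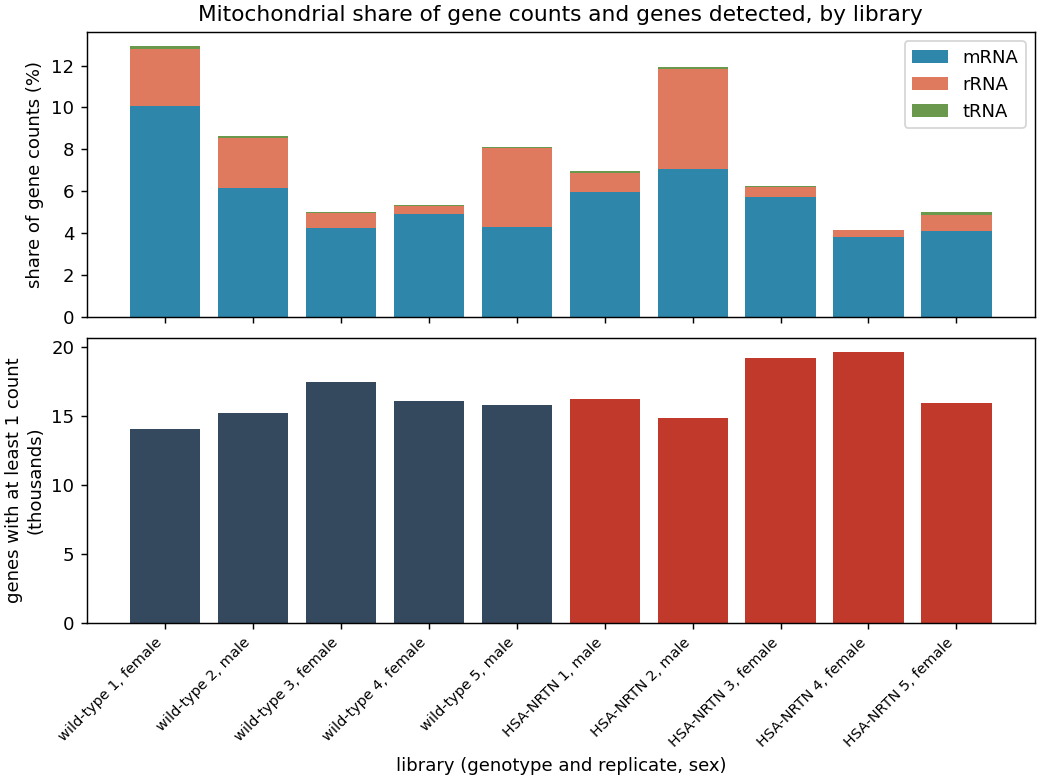
The upper bars give the percentage of gene counts on mitochondrial mRNAs, rRNAs and tRNAs in each of 10 libraries, and the lower bars the number of genes with at least 1 count in units of 1000. Shares run from 4.15% to 12.9%, and the 3 libraries with the highest shares are the 3 with the fewest genes.

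The rRNA and tRNA parts varied more between pools than the mRNA part. mt-Rnr1 and mt-Rnr2 together made up 21.1%, 28.01%, 14.2%, 7.22% and 46.5% of mitochondrial counts in wild-type replicates 1 to 5, and 12.96%, 40.2%, 8.04%, 8.23% and 15.0% in HSA-NRTN replicates 1 to 5. Their share of all gene counts differed up to 14.03-fold between libraries (0.342% to 4.79%), that of the tRNAs up to 15.1-fold (0.0107% to 0.161%) and that of the mRNAs up to 2.65-fold (3.799% to 10.1%). The groups overlapped, with means of 23.4% ± 15.1 in wild-type and 16.9% ± 13.4 in HSA-NRTN pools (SD, n = 5 each). The difference of -6.52 percentage points was -12.3 when HSA-NRTN replicate 2 was left out and -4.31 when replicate 3 was. It was -10.6 without wild-type replicate 4 and -0.751 without wild-type replicate 5. HSA-NRTN replicate 2, with 40.2%, also had the highest sums of oligodendrocyte and astrocyte markers and the highest share of unaligned reads (58.6%), whose part in this value was not tested. Wild-type replicate 5, with 46.5%, had 33.1% of reads unaligned and oligodendrocyte and astrocyte sums of 428.5 and 74.75 CPM, within the range of the other wild-type libraries.

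No mitochondrial gene passed the genotype test. Of the 37 genes, 26 passed the filter on low counts (12 mRNAs, 2 rRNAs and 12 tRNAs), and 0 of 26 had an adjusted p under 0.05 in edgeR's quasi-likelihood test, where 1 of 11630 genes did (0.0086%). DESeq2 called 58 of 11585 genes (0.501%) and limma voom 3 of 11630 (0.0258%), in both cases with 0 of the 26. An unadjusted p under 0.05 was found for 2 of 26, mt-Nd5 and mt-Atp6, both lower in HSA-NRTN pools, against 4.83% of all genes (2.42% lower). DESeq2 gave 2 of 26 as well, against 6.03% of all genes, and limma voom 2, against 5.76%. The log2 fold change was negative for 19 of 26 genes, against 51.4% of all genes tested. By kind it was negative for 11 of 12 mRNAs (median -0.35, against -0.01 over all genes), 2 of 2 rRNAs (-1.01 and -0.33) and 6 of 12 tRNAs (median 0.13). The untested mRNA, mt-Nd4l, had 3 to 12 counts in wild-type and 0 to 6 in HSA-NRTN libraries. These counts and medians moved with the libraries and the model. Without wild-type replicate 1 the median of the mRNAs was -0.07 and 11 of 26 genes were below 0, without HSA-NRTN replicate 2 the median was -0.59, and without HSA-NRTN replicate 4 it was -0.22. The median was 0.0075 with 8 of 26 below 0 when the genes detected per library were added as a covariate, and -0.66 with 20 of 26 below 0 when the run of animal numbers was. Limma voom put 26 of 26 below 0.

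**Figure D4:**
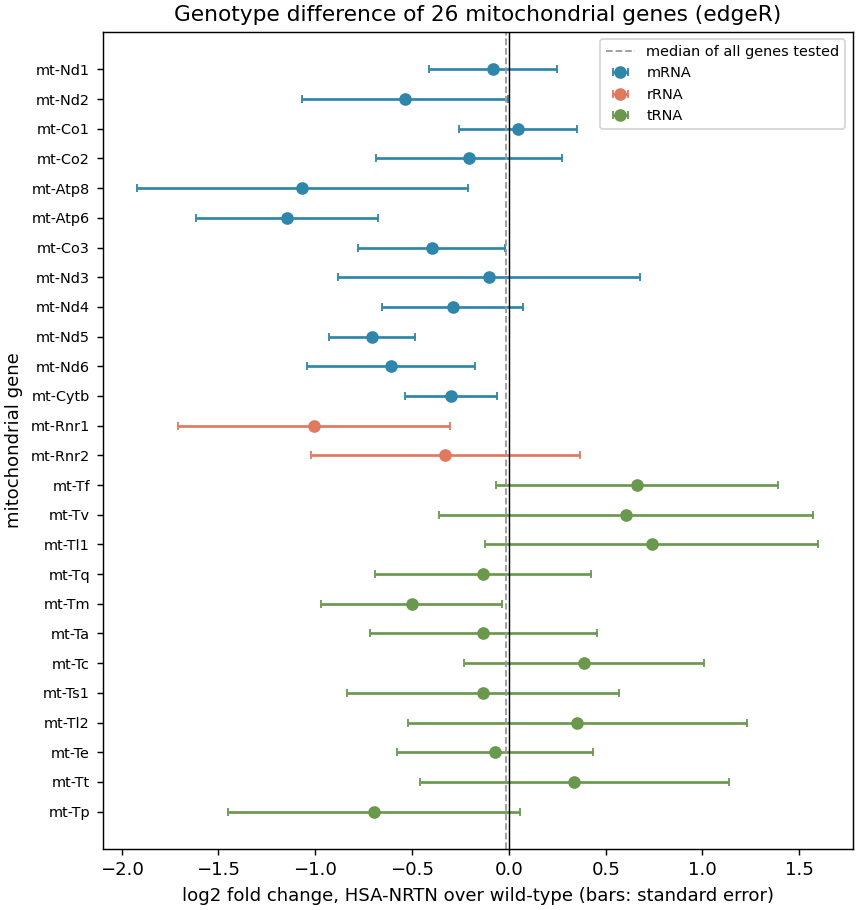
Points give the log2 fold change of HSA-NRTN over wild-type pools for the 26 mitochondrial genes tested with edgeR, with bars of 1 standard error, coloured by kind of RNA. The dashed line is the median of all genes tested at -0.01, and mt-Nd5 at -0.71 has the shortest bar.

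Complex I holds the gene with the clearest separation. From here, CPM are given with library sizes scaled by TMM. mt-Nd5 (ENSMUSG00000064367) was at 4145, 3022, 2239.9, 2358 and 2263 CPM in wild-type replicates 1 to 5 and at 1659.6, 2034, 1855, 1295 and 1757 CPM in HSA-NRTN replicates 1 to 5. The highest HSA-NRTN value lay below the lowest wild-type value. It was the 1 mitochondrial gene whose groups did not overlap, and 1.25% of all genes tested did not overlap (0.602% in this direction). The edgeR estimate was -0.71 on the log2 scale (SE 0.22). Its unadjusted p was 0.00621 and its adjusted p over all genes 0.680 in edgeR, so it did not pass. Under the 22 other settings and sets of libraries its log2 fold change ran from -0.87 to -0.50, with a smallest adjusted p of 0.282.

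The other complex I mRNAs overlapped between the groups. mt-Nd1 had a mean of 18208 CPM (SD 10138, n = 5) in wild-type pools and of 17220.2 (SD 5902, n = 5) in HSA-NRTN pools, with a log2 fold change of -0.08 whose range of 2 standard errors was -0.74 to 0.58. The log2 value was -0.54 (SE 0.53) for mt-Nd2 and -0.29 (SE 0.36) for mt-Nd4. For mt-Nd6, the light-strand mRNA, it was -0.61 (SE 0.43), with mean CPM of 2754 (SD 1770.2, n = 5) in wild-type and 1806 (SD 939, n = 5) in HSA-NRTN pools. For mt-Nd3, which is covered by a nuclear copy, it was -0.10 (SE 0.78). For mt-Nd1, mt-Nd2, mt-Nd4 and mt-Nd6, wild-type replicate 1 had the highest CPM of all 10 libraries.

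In complex III, mt-Cytb was at 27083, 17957, 14359.5, 21832 and 12157 CPM in wild-type replicates 1 to 5 and at 15342, 15356, 19771, 13364 and 12209 CPM in HSA-NRTN replicates 1 to 5. Its log2 fold change was -0.30 (SE 0.24) and the groups overlapped. In complex IV, mt-Co1 had the single positive value among the mRNAs, 0.05 (SE 0.30), from means of 2545 CPM (SD 694, n = 5) in the wild-type and 2626 (SD 1264, n = 5) in the HSA-NRTN pools. mt-Co2 was at -0.21 (SE 0.48) and mt-Co3 at -0.40 (SE 0.38), both covered by nuclear copies.

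In the ATP synthase, mt-Atp6 (ENSMUSG00000064357, chrM:7927-8607), which encodes a subunit of the proton channel, was at 159, 190.3, 39.6, 74.9 and 61.3 CPM in wild-type replicates 1 to 5. In HSA-NRTN replicates 1 to 5 it was at 69.7, 53.5, 43.2, 12.4 and 58.9 CPM. Wild-type replicates 1 and 2 stood highest and the groups overlapped. The log2 estimate was -1.15 (SE 0.47), and edgeR gave it an unadjusted p of 0.0272 and an adjusted p of 0.941. The gene shares 99.5% of its windows with annotated nuclear transcripts, and its copy on chromosome 1, Gm10925, had 3104 counts over all libraries against 3172 for the gene. mt-Atp8, which shares 43 bases with mt-Atp6, had at most 35 counts in any library and a log2 fold change of -1.07 (SE 0.85).

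The rRNAs varied within the groups by more than between them. mt-Rnr1 was at 11677, 8576, 2048, 1346 and 15699 CPM in wild-type replicates 1 to 5 and at 2685, 12060.0, 1306, 825 and 2722 CPM in HSA-NRTN replicates 1 to 5, with a log2 fold change of -1.01 (SE 0.70). It was -2.06 without HSA-NRTN replicate 2, -0.61 without wild-type replicate 5, and -0.39 with the genes detected as a covariate. For mt-Rnr2 the log2 fold change was -0.33 (SE 0.70). With 1 library left out it ran from -0.05, without wild-type replicate 5, to -1.68, without HSA-NRTN replicate 2, the library with the highest CPM of both rRNAs but for mt-Rnr1 in wild-type replicate 5. Among the 12 tRNAs tested, log2 fold changes ran from -0.70 (mt-Tp) to 0.74 (mt-Tl1), and mt-Tq was at -0.14 (SE 0.56). None of the 12 separated the groups.

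Ratios of genes within a library need no scaling between libraries, and 4 were compared. mt-Nd5 to mt-Nd1, 2 complex I mRNAs far apart on the heavy-strand transcript, was 0.118, 0.151, 0.193, 0.184 and 0.198 in wild-type replicates 1 to 5 and 0.0829, 0.0801, 0.106, 0.116 and 0.147 in HSA-NRTN replicates 1 to 5. Wild-type replicate 1 lay inside the HSA-NRTN range and HSA-NRTN replicate 5 inside the wild-type range. The mean log2 ratio was 0.68 lower in HSA-NRTN pools (-3.27 ± 0.36 against -2.59 ± 0.32, SD, n = 5 each, exact two-sided permutation test, p = 0.0159). Adjusted over the 4 ratios, the exact p was 0.0635, and 0.00794 is the smallest unadjusted p that 5 against 5 libraries allow. The ratio was set up with the lower mt-Nd5 value already known, so it is no independent support for it. Within females alone the difference was -0.41 and within males alone -1.08.

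None of the 4 ratios passed after adjustment. mt-Rnr1 to mt-Rnr2 was 0.435 to 0.666 in wild-type and 0.330 to 0.561 in HSA-NRTN libraries, a log2 difference of -0.42 (exact permutation p = 0.0556, adjusted 0.111). Without HSA-NRTN replicate 5 its exact permutation p was 0.0238 and without wild-type replicate 3 it was 0.0476, both unadjusted. mt-Nd6 to mt-Cytb, the light-strand mRNA against its heavy-strand neighbour, differed by -0.28 (exact permutation p = 0.603). mt-Nd1 to mt-Rnr2, the first mRNA against the rRNA just before it, differed by 0.68 (exact permutation p = 0.381) and spread from 0.484 to 5.05 over the libraries.

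**Figure D5:**
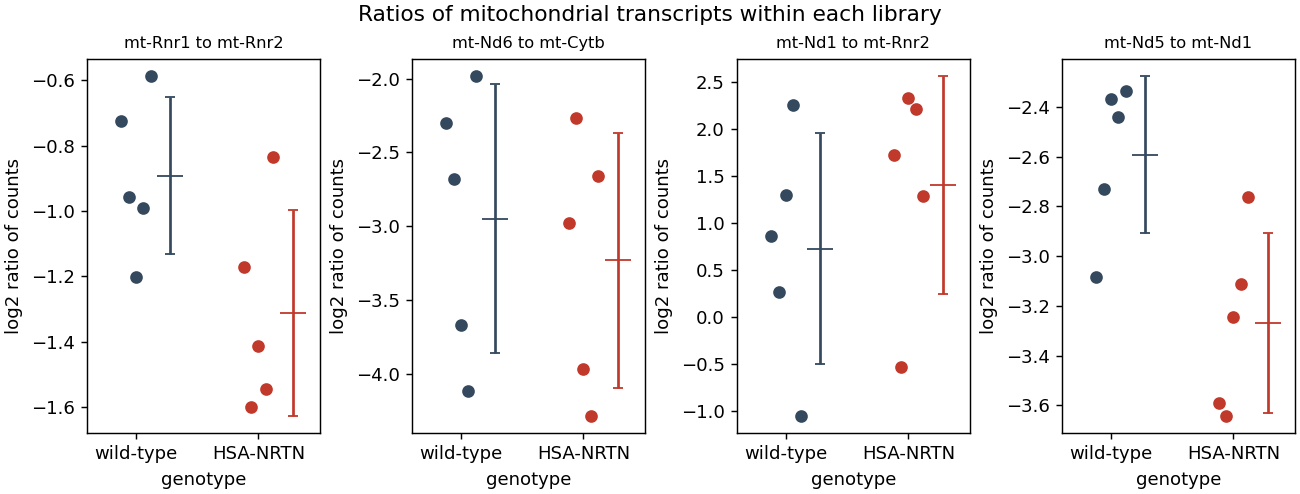
Each point is the log2 ratio of counts of 2 mitochondrial genes in 1 library, for 4 ratios, with the group mean and SD beside the 5 points of each genotype and a vertical axis of its own for each ratio. The groups overlap in all 4, and the mt-Nd5 to mt-Nd1 ratio has means of -2.59 in wild-type and -3.27 in HSA-NRTN pools.

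Sex is the other label of the animals, and no mitochondrial gene passed the test for it. The rRNAs made up 12.3% ± 5.47 of mitochondrial counts in females (SD, n = 6) and 31.9% ± 14.8 in males (SD, n = 4), with overlapping ranges of 7.22% to 21.1% and 12.96% to 46.5%. With genotype in the model, mt-Rnr2 had a log2 difference of females minus males of -1.91 (SE 0.55) and mt-Rnr1 of -1.74 (SE 0.57), while mt-Co1 was at 0.81 (SE 0.25). None passed over all genes in edgeR, with adjusted p of 0.367 for mt-Rnr2, 0.375 for mt-Rnr1 and 0.367 for mt-Co1. Of the 26 mitochondrial genes 0 were called for sex, against 0.0086% of all genes, and 5 had an unadjusted p under 0.05, against 11.2%. DESeq2 called 0 of 26, against 0.913% of all genes, with 4 at an unadjusted p under 0.05, against 13.9%. Limma voom called 0, with 11 unadjusted, against 10.4%. The difference was negative for 24 of 26 genes, against 5722 of 11630 genes tested.

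Calls for sex depended on the libraries and on the filter. Without wild-type replicate 1, the female with the highest mitochondrial share, edgeR called mt-Rnr1 (-2.45, adjusted p = 0.0224), mt-Rnr2 (-2.47, 0.0171) and mt-Nd2 (-1.33, 0.0438), with 176 of 12054 genes called (1.46%). With no filter beyond 1 count it called mt-Rnr1 and mt-Rnr2, with 315 of 26070 genes called (1.21%). Library quality moved with sex: males had 44.0% ± 10.7 of reads unaligned (SD, n = 4) and females 26.4% ± 11.8 (SD, n = 6), and females had 17100.3 ± 2125 (SD, n = 6) and males 15540 ± 628 (SD, n = 4) genes detected. Its part in the difference was not tested. The genotype difference was not shown to differ between the sexes for any mitochondrial gene, with 0 of 26 interaction terms called and 0 with an unadjusted p under 0.05 in edgeR, DESeq2 or limma voom. Of all genes 5.14% had an unadjusted p under 0.05 for that term in edgeR, 6.81% in DESeq2, which called 0.069%, and 4.02% in limma voom.

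The nuclear genes that copy, transcribe and process mitochondrial DNA and RNA did not pass the genotype test either. Of 44 such factors 40 were tested and 0 were called in either direction, with a median log2 fold change of -0.15 against -0.01 over all genes. None had an unadjusted p under 0.05 in edgeR. Lrpprc, which stabilises mitochondrial mRNAs, was at 0.30 (SE 0.24) on the log2 scale, and those of the methyltransferases Mrm1 and Nsun4 and of Mterf4 were -1.14 (SE 0.88), -0.45 (SE 0.39) and 0.70 (SE 0.58). Of 78 mitochondrial ribosomal protein genes 77 were tested and 0 called (median -0.04), and 1, Mrps2, with means of 87.3 CPM (SD 19.7, n = 5) in wild-type and 55.2 (SD 15.8, n = 5) in HSA-NRTN pools, had an unadjusted p under 0.05. Of 82 nuclear genes for respiratory chain subunits 80 were tested and 0 called (median 0.02), with values of -0.35 for Ndufa12, 0.28 for Ndufs6, 0.22 for Atp5b and -0.24 for Uqcr11. Mitochondrial mRNA counts per count of these nuclear subunit genes ran from 0.964 to 4.63 in wild-type and from 0.941 to 3.42 in HSA-NRTN libraries.

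In the authors' deposited table, 31 of the 37 genes were listed. The smallest adjusted p among them was 0.151, for mt-Nd5 with a log2 fold change of -0.65, and the authors' deposited table gave mt-Atp6 a log2 fold change of -0.88. Both had unadjusted p under 0.05 in the authors' deposited table (0.00302 and 0.0127), and no other mitochondrial gene with a p given there did. For 3 of the 31, mt-Rnr1, mt-Nd2 and mt-Tp, the table gave no p, and 27 had an adjusted p.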

How the data were processed

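Raw counts were used as deposited for 51912 genes in 10 libraries, 1 per animal. The p-values thus measure the spread between single libraries of these animals. Differences between animals, between pools and between library preparations cannot be told apart in it. Per the submitters' processing notes the authors used STAR 2.5.0a, HTSeq and GRCm38.p6. No source used here gives the read length, the counting mode or the annotation behind the counts. Per the labels, genotype and sex were taken as stated, and replicate numbers are names only. The 92 spike-ins and 5 tally entries (such as unaligned reads) stayed out of library sizes and tests. The authors' deposited expression table holds a signal of size-factor scaled counts and was not the source of symbols. The authors' deposited comparison table holds log2 fold changes, a test score and p-values, which are quoted by name, and it was used to match symbols.

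Symbols of 31 members came from the deposited comparison table and of 6 from GENCODE M21 (GRCm38). Counts were filtered with filterByExpr and scaled by TMM. Genotype, sex (with genotype) and their interaction were tested with edgeR 4.0.16 in R 4.3.3 (quasi-likelihood, Benjamini-Hochberg over 11630 genes, called under 0.05). DESeq2 1.42.0 and limma 3.58.1 were alternatives. Ratios, with 0.5 added to counts, were compared by exact permutation. Nuclear copies were found with BLAST+ 2.17.0 (megablast) in GENCODE M21 transcripts, since the genome sequence for which this step had been planned was not used here. Gene windows of 36, 50 and 100 bases were searched in them on both strands.

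The members, lists, ratios and alternatives were chosen with earlier results of these data known. By the rule for named genes, all members that passed the filter were named, with tRNAs and nuclear copies at 10 counts in 5 libraries and up to 4 genes of smallest p per nuclear list. mt-Ti, mt-Tw, mt-Tr, mt-Td, mt-Tk, mt-Tg and mt-Nd4l were named outside it, after their values were seen. In simulated counts for the genotype comparison (11111 genes), 17.2% of the genes changed 2-fold were found by edgeR. For 4-fold changes the share was 50.8% and for 8-fold changes 85.5%. Among 101 calls 5 were false.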

Additional observations from a re-analysis of the deposited data

Results flagged for a closer look

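In each genotype, the 5 values of every tested gene, ratio and share were looked at for a highest or lowest library that stood far from the nearest other relative to the range of the group (Dixon's criterion). Of 66 such groups of values 7 met it. The limit used is met in about 1 in 20 groups of independent, normally distributed values. The values here were taken on a linear scale, and the groups share the same libraries. The count of 7 can therefore not be set against that rate. All 7 values were the highest of their group. For 3 of them the library was HSA-NRTN replicate 2. Its rRNA share of mitochondrial counts was 40.2%, where the next library had 15.0%, mt-Rnr1 was at 12060.0 CPM with the next at 2722, and mt-Rnr2 was at 36544 CPM with the next at 6046. That library also had the fewest gene counts, and the 3 values are not independent of each other. For the other 4 it was wild-type replicate 1, which has the highest mitochondrial share of all libraries. There mt-Nd4 was at 20500.5 CPM with the next wild-type library at 9351, the alanine tRNA mt-Ta at 55.1 with the next at 24.6, the methionine tRNA mt-Tm at 60.8 with the next at 30.0, and the leucine tRNA mt-Tl1 at 7.80 with the next at 2.82. With HSA-NRTN replicate 2 and wild-type replicate 1 both left out, 0 of 26 mitochondrial genes were called for genotype in edgeR and the median log2 fold change of the mRNAs was -0.38.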

How the results depend on the processing

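No mitochondrial gene was called for genotype under any of the 22 other settings, where the smallest adjusted p of a member was 0.245 (mt-Atp6). mt-Nd5, mt-Atp6, mt-Atp8, mt-Co3 and mt-Rnr1 were lower in HSA-NRTN pools in every setting that tested them, and the sign of the other 21 turned in at least 1. mt-Atp8 was tested in 21 of the 22 settings and was left out by the stricter filter given next. Over all genes the genotype count of 1 was 81 with no filter beyond 1 count, 8 with a stricter filter (10 counts in 8 libraries), 58 with DESeq2, 3 with limma voom, 5 with sex as a covariate, 10 with the number of genes detected and 0 with the run of animal numbers. It was 0 in females or males alone and 0 to 13 with 1 library left out, where the value of 13 was without HSA-NRTN replicate 3. The median of the mRNAs was 0.0075 with the number of genes detected, -0.66 with the run of animal numbers, -0.78 in females alone, -0.04 in males alone and -0.59 to -0.07 with 1 library left out. The difference in mitochondrial share was 1.08 percentage points in males alone, -4.56 in the lower run of animal numbers and -2.42 to 0.0884 with 1 library left out. The mt-Nd5 to mt-Nd1 difference missed an exact permutation p of 0.05 in females alone (-0.41, p = 0.2) and males alone (-1.08, p = 0.333), where so few samples cannot reach it, and ran from -0.81 to -0.59 with 1 library left out. The difference in rRNA share of mitochondrial counts ran from -12.3 to -0.751 and the log2 fold change of mt-Rnr1 from -2.06 to -0.61 with 1 library left out. The log2 ratio difference of mt-Rnr1 to mt-Rnr2 ran from -0.54 to -0.34. Mitochondrial genes called for sex were 2 with no filter and 0 to 3 with 1 library left out. Nuclear copies were 7 at 98% identity. No paired analysis was made because the labels do not say which animals would form a pair.

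Log2 fold changes whose sign turned were as follows. Among females alone it was -0.14 for mt-Tf, -0.16 for mt-Tv, -0.73 for mt-Tl1, -0.31 for mt-Tc, -0.23 for mt-Tl2 and -0.93 for mt-Tt. With limma voom it was -0.65 for mt-Tf, -0.83 for mt-Tv, -0.12 for mt-Tl1, -0.46 for mt-Tc, -0.0013 for mt-Co1, -0.18 for mt-Tl2 and -0.42 for mt-Tt. Among males alone it was 0.063 for mt-Rnr2, 0.52 for mt-Nd1, 0.34 for mt-Tq, 0.46 for mt-Tm, 0.43 for mt-Nd2, 0.79 for mt-Ta, -0.20 for mt-Co1, 0.51 for mt-Nd3, 0.28 for mt-Nd4, 0.016 for mt-Cytb and 0.54 for mt-Tp. With the genes detected per library as a covariate it was 0.20 for mt-Rnr2, 0.33 for mt-Nd1, 0.58 for mt-Tq, 0.32 for mt-Nd2, 0.53 for mt-Ta, -0.45 for mt-Co1, 0.45 for mt-Ts1, 0.31 for mt-Co2, 0.71 for mt-Nd3, 0.27 for mt-Nd4, 0.064 for mt-Nd6, 0.48 for mt-Te and 0.64 for mt-Tp. With the run of animal numbers as a covariate it was -0.27 for mt-Tt. With sex as a covariate it was -0.032 for mt-Tt. Without wild-type replicate 1 and HSA-NRTN replicate 2 it was 0.12 for mt-Nd1, 0.24 for mt-Tq, 0.10 for mt-Ta and 0.036 for mt-Te. With 1 library left out, those that turned ran from -0.16 to 0.19 for mt-Co1, -0.56 to 0.018 for mt-Co2, -0.26 to 0.30 for mt-Nd1, -1.02 to 0.10 for mt-Nd2, -0.61 to 0.35 for mt-Nd3, -0.49 to 0.14 for mt-Nd4, -0.40 to 0.36 for mt-Ta, -0.085 to 0.73 for mt-Tc, -0.40 to 0.18 for mt-Te, -0.068 to 1.31 for mt-Tl1, -1.07 to 0.28 for mt-Tp, -0.52 to 0.33 for mt-Tq, -0.54 to 0.15 for mt-Ts1, -0.36 to 0.88 for mt-Tt and -0.18 to 1.06 for mt-Tv. The causes were not tested.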

Other observations

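Nuclear genes for mitochondrial proteins and the mitochondrial genes had opposite signs in the sex comparison, with none of either called in edgeR. Females minus males was positive for 71 of 80 nuclear respiratory chain subunits (median 0.40), 68 of 77 mitochondrial ribosomal protein genes (median 0.62) and 32 of 40 factors of mitochondrial DNA and RNA (median 0.32), against 5908 of 11630 genes tested (median 0.01). It was negative for 24 of 26 mitochondrial genes (median -0.69). The smallest adjusted p in edgeR was 0.359, 0.331 and 0.404 in the 3 nuclear lists and 0.367 among the mitochondrial genes. The nuclear subunits held 2.06% to 4.39% of gene counts, and the lowest values were 2.06% in HSA-NRTN replicate 2 and 2.17% in wild-type replicate 1, the libraries with the highest mitochondrial shares. The number of genes detected and the share of unaligned reads differed between the sexes as well, and their part was not tested.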
